A study of Homo sapiens with 6 samples.

Results

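The genes described here are 35 androgen-responsive genes other than the kallikreins, from TMPRSS2 and FKBP5 to RAB4A, in the prostate cancer cell line C4-2B and in its cabazitaxel (CBZ)-resistant subclone RC4-2B. They were chosen by name, as the rows of the deposited count table whose gene symbol equals a symbol on the list. All 35 symbols matched 1 row each among the 58735 rows, all are protein-coding, and all 35 were among the 15054 genes with enough counts to be tested. The comparison asks how many of these genes were lower in the resistant subclone and which were not.

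C4-2B is a long-used cell line of castration resistant prostate cancer. RC4-2B was derived from it by repeated exposure to CBZ, a taxane, in pulses of 72 h separated by recovery, from 0.1 nM to 20 nM over 4 months. RNAseq was done on 3 biological replicates of each line, with no drug named for the culture that gave the RNA. RC4-2B is a single subclone, so a difference between the lines cannot be told apart from a difference between this clone and other cells of the parental culture. The labels give 10% fetal bovine serum as the supplement of the medium, and the study's RNA-seq methods also name charcoal-stripped serum. Charcoal treatment removes steroid hormones, and the amount of androgen in the cultures was not measured.

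Androgens are steroid hormones that change transcription through response elements in DNA, together with chaperones, the pioneer factor FOXA1 and coactivators. In prostate luminal cells they drive secretory and metabolic genes as well as regulators that feed back on growth signals. The best known target is KLK3, which encodes prostate-specific antigen. The 35 genes reach beyond the kallikreins to a protease, receptors, kinases, elongation factors, and enzymes of lipid and polyamine metabolism. Several of them, such as FKBP5, SGK1, TSC22D3 and ZBTB16, are also known as glucocorticoid targets.

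The libraries held 15707134 to 18052517 counts on genes. At this depth a count of 3 corresponds to 0.170 to 0.188 CPM, which are counts relative to library size after TMM scaling. This limit and the intervals given cover the spread of counting and of these libraries only. The 35 genes took 0.520% to 0.600% of the counts of a library. Markers of prostate luminal epithelium summed to 2634 to 2704 CPM in C4-2B and 2794 to 3738 CPM in RC4-2B, without overlap. Of these 7 markers, 0 passed the test. The basal, fibroblast, leukocyte and endothelial lists each had 1 marker above 3 counts in any library. The fibroblast sum was 21.2 to 25.2 CPM in C4-2B and 22.2 to 36.6 CPM in RC4-2B. The endothelial sum was 7.47 to 8.14 CPM in C4-2B and 3.64 to 5.07 CPM in RC4-2B, without overlap. The 3 neuroendocrine markers summed to 8.60 to 10.1 CPM in C4-2B and 6.96 to 10.3 CPM in RC4-2B. Their part in the results was not tested. RC4-2B replicate 2 stood apart from the other RC4-2B libraries. The standard deviation of the log2 difference across expressed genes was 0.58 and 0.51 between it and replicates 1 and 3, against 0.21 between replicates 1 and 3 and 0.12 to 0.19 within C4-2B. The numbers of genes called are therefore also given without this library. In bulk RNA, fewer cells that express a gene and less RNA per cell cannot be told apart.

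Levels are compared between genes in FPKM, which divides counts by gene length. In C4-2B the most abundant of the 35 was ODC1, the rate-limiting enzyme of polyamine synthesis, at 310 ± 13.7 FPKM (SD, n = 3). SORD, which oxidizes sorbitol to fructose, followed at 111 ± 3.65 FPKM, and PLPP1, a membrane lipid phosphate phosphatase, at 100.5 ± 7.26 FPKM. The highest PLPP1 library, at 106.6 FPKM, was just under the lowest SORD library, at 107.2 FPKM, so this order is hardly beyond the spread. At the other end, SGK1, a serum- and steroid-inducible kinase, was at 0.495 ± 0.0104 FPKM, and HPGD, which inactivates prostaglandins, at 0.220 ± 0.100 FPKM. HPGD had 7 to 33 counts per library and the largest standard error of the 35. In RC4-2B, ODC1 remained first at 292 ± 34.0 FPKM, STK39 was at 111 ± 15.1 FPKM, SMS at 104 ± 31.7 FPKM and SORD at 99.8 ± 3.98 FPKM, whose libraries overlapped, and HPGD was last at 0.127 ± 0.0581 FPKM.

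**Figure D1:**
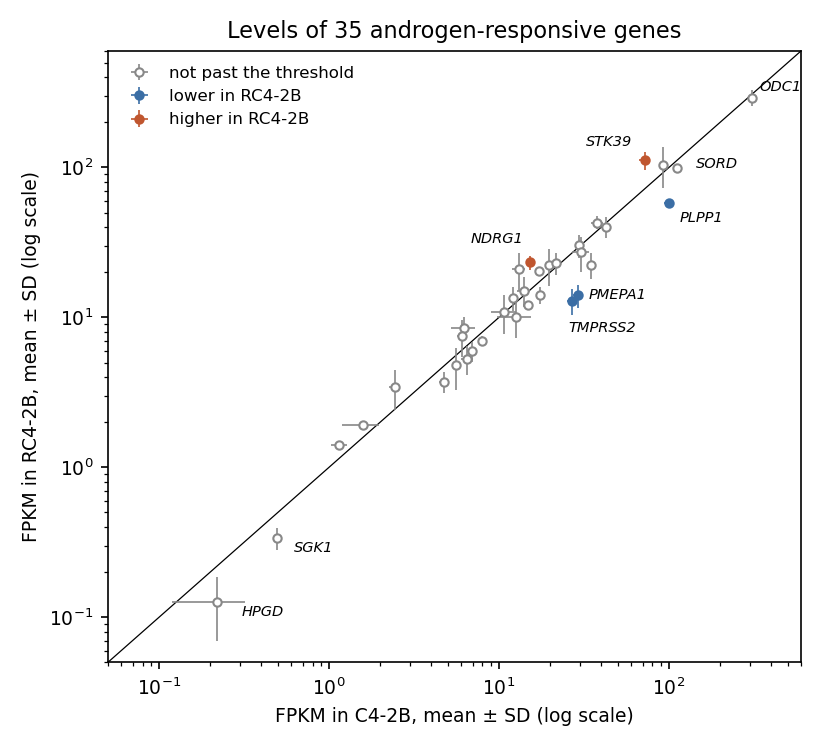
Mean FPKM (± SD, n = 3) of the 35 genes in C4-2B (horizontal, log scale) and RC4-2B (vertical, log scale), with the line of equal levels. Most genes lie near the line from HPGD (0.220 FPKM in C4-2B) to ODC1 (310 FPKM), while PMEPA1, TMPRSS2 and PLPP1 lie below it and STK39 and NDRG1 above it.

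Of the 35 genes, 3 were called lower and 2 higher in RC4-2B by the quasi-likelihood test of edgeR, where a call is a Benjamini-Hochberg adjusted p-value below 0.05 over the whole table. Over all 15054 genes, 0.903% were called lower and 1.08% higher. The lower genes were PMEPA1, TMPRSS2 and PLPP1, and the higher genes were STK39, which encodes a stress-responsive kinase, and NDRG1, which encodes a protein linked to differentiation and hypoxia. The other 30 did not pass, with log2 fold changes between -0.81 (HPGD) and 0.66 (IQGAP2). By the unadjusted p-value, 6 genes were lower and 5 higher at 0.05, where 9.42% of all genes were lower and 12% higher.

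TMPRSS2 encodes a transmembrane serine protease whose androgen-driven promoter is the usual partner in ERG gene fusions of prostate cancer. In GRCh38 the gene spans chr21:41464551-41531116 (minus strand). It was at 185, 172 and 195 CPM in C4-2B replicates 1 to 3 and at 95.9, 65.9 and 99.8 CPM in RC4-2B replicates 1 to 3. All RC4-2B libraries were below all C4-2B libraries, and RC4-2B replicate 2 was the lowest. The mean fell from 184 ± 11.5 to 87.2 ± 18.5 CPM (SD, n = 3). This is 2.11-fold lower, or -1.08 on the log2 scale with a standard error of 0.16 (edgeR adjusted p = 0.019).

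PMEPA1 encodes a membrane protein that recruits NEDD4-type ubiquitin ligases and restrains TGF-beta signalling. The gene spans chr20:57648392-57711536 (minus strand). Its values were 191, 169 and 190 CPM in C4-2B and 71.9, 84.9 and 103 CPM in RC4-2B. The groups did not overlap, and the highest RC4-2B library, replicate 3, was well under the lowest C4-2B library. On the log2 scale the difference was -1.08 with a standard error of 0.15 (edgeR adjusted p = 0.011).

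PLPP1 removes phosphate from lipids such as lysophosphatidic acid at the cell surface. The gene spans chr5:55424854-55535050 (minus strand). It was at 240, 209 and 229 CPM in C4-2B and at 123, 133 and 128 CPM in RC4-2B. The RC4-2B libraries lay close together and none reached the C4-2B range. On the log2 scale the difference was -0.82 with a standard error of 0.10 (edgeR adjusted p = 0.0089), the smallest p-value of the 35 genes.

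Each of these 3 genes shares exon bases with a gene on the other strand. In GENCODE release 44, 481 exon bases of PLPP1, 24.9% of its exon length, overlap MTREX, which had a log2 fold change of 0.27 (adjusted p = 0.30). PMEPA1 shares 343 exon bases with NKILA, which was at 10.2 ± 1.23 CPM in C4-2B against 8.55 ± 1.07 CPM in RC4-2B (adjusted p = 0.40). NKILA was thus far below PMEPA1 in both lines. TMPRSS2 shares 8.53% of its exon length with MX1, which had at most 51 counts in a library. Whether the authors' counting used strand is not given in the sources used here, so reads of such pairs may be mixed.

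STK39 encodes SPAK, a kinase that switches cation-chloride cotransporters. The gene spans chr2:167954020-168248141 (minus strand). Its values were 329, 329 and 368 CPM in C4-2B and 483, 585 and 487 CPM in RC4-2B. RC4-2B replicate 2 was the highest, and both other RC4-2B libraries also exceeded every C4-2B library. On the log2 scale the difference was 0.60 with a standard error of 0.11 (edgeR adjusted p = 0.039), or 1.52-fold higher.

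NDRG1 spans chr8:133237171-133302022 (minus strand). It was at 173, 159 and 168 CPM in C4-2B and at 253, 270 and 227 CPM in RC4-2B. The groups did not overlap, and the spread of the C4-2B libraries was small. On the log2 scale the difference was 0.59 with a standard error of 0.11 (edgeR adjusted p = 0.032).

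CENPN and IQGAP2 had groups that did not overlap and changes of over 1.5-fold, but did not pass the threshold over all 6 libraries. CENPN, a kinetochore protein that recognizes centromeric nucleosomes, was at 143, 139 and 134 CPM in C4-2B and at 75.4, 105 and 82.4 CPM in RC4-2B. RC4-2B replicate 2 was the closest to the parental range. The log2 fold change was -0.66 (95% interval -0.98 to -0.34, adjusted p = 0.056 from edgeR's test), and the adjusted p-value without RC4-2B replicate 2 was 3.09e-05. CENPN shares 716 exon bases with a long noncoding RNA of the same strand. IQGAP2, a scaffold protein of the actin cytoskeleton, was at 104, 119 and 121 CPM in C4-2B and at 144, 235 and 167 CPM in RC4-2B. Here RC4-2B replicate 2 was far above the other RC4-2B libraries. The log2 fold change was 0.66 (95% interval 0.25 to 1.07, adjusted p = 0.10), and without RC4-2B replicate 2 it was 0.44 with an adjusted p-value of 0.0072. Over all the other fits made, the adjusted p-value ranged from 3.09e-05 to 0.26 for CENPN and from 0.0055 to 0.39 for IQGAP2.

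**Figure D2:**
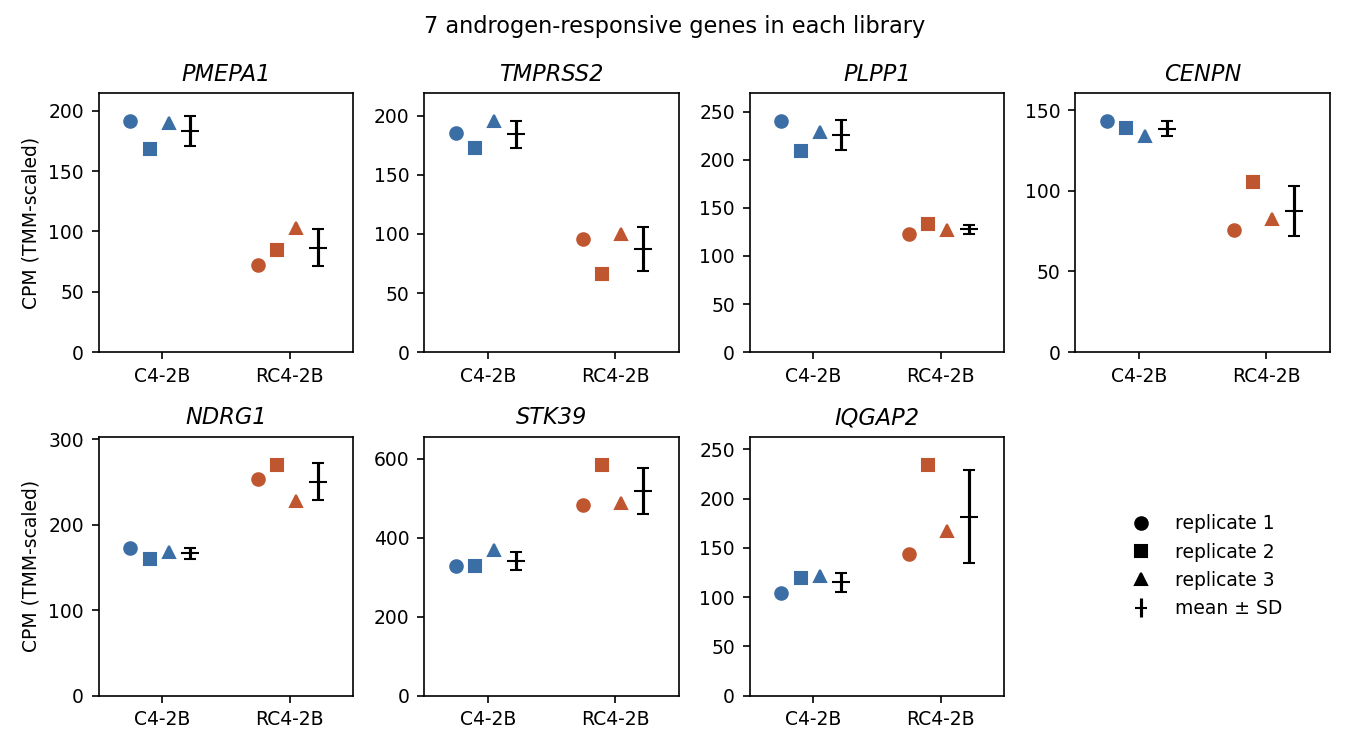
CPM of 7 genes in each library (points, by replicate) with mean ± SD (n = 3, bars) for C4-2B and RC4-2B. In every panel the groups do not overlap, and IQGAP2 has the widest spread relative to its mean in RC4-2B, from 144 to 235 CPM.

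The calls depended on each C4-2B library. Without C4-2B replicate 1, 2 or 3, 0 of the 35 genes passed edgeR's threshold, while 6, 5 and 5 were lower and 3, 3 and 4 higher at an unadjusted p-value under 0.05. Of all genes 4.59%, 5.45% and 6.04% were lower and 6.39%, 7.47% and 8.29% higher by that measure. In these fits the log2 fold change of TMPRSS2 stayed between -1.13 and -1.04, and its adjusted p-value was 0.12, 0.082 and 0.10. The share of all genes called was also small there, at 0.284%, 0.371% and 0.364%. Without RC4-2B replicate 3 PMEPA1 alone passed, where 0.503% of all genes were called. Without RC4-2B replicate 1 the numbers were 3 lower and 3 higher, against 1.44% and 1.63% of all genes. DESeq2, the tool the study names, called 4 genes lower and 3 higher, where 2.64% and 3.28% of all genes were called. Its added genes were CENPN and IQGAP2. With limma on log2(FPKM + 1), STK39 (0.61, adjusted p = 0.089) and NDRG1 (0.58, adjusted p = 0.072) kept the size of their change but did not pass. That fit called 0.484% of all genes lower and 0.384% higher.

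Among the partners and shared hormone targets of steroid receptors, 0 of 5 genes passed in edgeR and 0 in DESeq2. Of them 1, SGK1, had an unadjusted p-value under 0.05 in edgeR. Over all genes, edgeR called 0.903% lower and 1.08% higher, and DESeq2 2.64% and 3.28%. At an unadjusted p-value under 0.05 in edgeR the shares were 9.42% and 12%. In role groups this small, here and below, 0 calls are near these shares and mark no group out. FKBP5, a cochaperone that is among the most hormone-responsive genes of prostate cells, was at 338, 343 and 372 CPM in C4-2B and at 288, 384 and 386 CPM in RC4-2B. RC4-2B replicate 1 was below every C4-2B library and the other two were above, so the RC4-2B range enclosed that of C4-2B. Its log2 fold change was 0.0054, with a 95% interval of -0.30 to 0.31, which does not reach the size of the change in TMPRSS2. SGK1 was at 5.52 ± 0.148 CPM in C4-2B against 3.70 ± 0.554 CPM in RC4-2B (SD, n = 3), with groups that did not overlap and a log2 fold change of -0.57 (adjusted p = 0.16). ERRFI1, an inhibitor of the EGF receptor, had a log2 fold change of -0.22 and groups that did not overlap. TSC22D3, a leucine zipper protein, and ZBTB16, a transcriptional repressor, had -0.33 and -0.24 with overlapping groups. Without RC4-2B replicate 2 these were -0.17 and -0.0098.

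Of the 5 surface and secreted proteins, TMPRSS2 alone passed. TRPM8, a cold-activated cation channel, was at 57.4 ± 4.74 CPM in C4-2B against 45.7 ± 8.83 CPM in RC4-2B, with log2 fold change -0.33 (95% interval -0.69 to 0.03). RC4-2B replicate 2, at 55.1 CPM, lay inside the C4-2B range, and without it TRPM8 had a log2 fold change of -0.49 and an adjusted p-value of 0.0072. LIFR, the receptor for leukemia inhibitory factor, had a log2 fold change of 0.46 (95% interval 0.02 to 0.91). It was highest in RC4-2B replicate 2, at 57.0 CPM, and the log2 fold change without that library was 0.25. AZGP1, a secreted zinc-binding glycoprotein, and ADAM7, a metalloprotease-like membrane protein, had log2 fold changes of -0.11 and 0.26.

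None of the 4 transcription and elongation factors passed in edgeR or in DESeq2 (0 of 4 in each), and 1, MAF, had an unadjusted p-value under 0.05. MAF, a basic leucine zipper factor, was at 48.4 ± 7.28 CPM in C4-2B against 65.3 ± 12.2 CPM in RC4-2B, with log2 fold change 0.43 (adjusted p = 0.20, and 0.028 without RC4-2B replicate 2). EAF2, which binds elongation factors of the ELL family, had a log2 fold change of -0.37 and groups that did not overlap. ELL2, a subunit of the super elongation complex, was at -0.0065 with a 95% interval of -0.46 to 0.45. ZBTB10, a zinc finger protein, was at 0.084.

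Of the 6 signalling and scaffold proteins, calls were in both directions, with 1 lower (PMEPA1) and 2 higher (STK39 and NDRG1). Over all genes tested, 0.903% were called lower and 1.08% higher. All 6 had groups that did not overlap, 3 lower and 3 higher. Of all genes tested, 17.1% were lower and 17% higher without overlap. CAMKK2, the kinase upstream of AMPK, was at 106.5, 115 and 120.2 CPM in C4-2B and at 91.1, 92.9 and 92.4 CPM in RC4-2B. Its RC4-2B values lay within a narrow range, and its log2 fold change was -0.31 (95% interval -0.54 to -0.07, adjusted p = 0.16). HOMER2, a synaptic-type scaffold, had a log2 fold change of -0.25.

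Of the 4 lipid and retinoid enzymes PLPP1 alone passed. ACSL3, which activates long-chain fatty acids, was at 226, 232 and 275 CPM in C4-2B and at 166, 268 and 209 CPM in RC4-2B. RC4-2B replicate 2 lay inside the C4-2B range and both other RC4-2B libraries below it. Its log2 fold change was -0.19, and it was -0.38 without replicate 2 (adjusted p = 0.031). ALDH1A3, which makes retinoic acid, had a log2 fold change of 0.24. HPGD had -0.81 with a 95% interval of -1.89 to 0.28, an interval that at these low counts holds both a large decrease and a small increase.

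The polyamine, sugar and one-carbon enzymes held the most abundant genes and 0 of 4 passed in edgeR, in DESeq2 or at an unadjusted p-value under 0.05. ODC1 had a log2 fold change of -0.11 (95% interval -0.34 to 0.12, and -0.19 without RC4-2B replicate 2) and SORD -0.18 (95% interval -0.39 to 0.03). Both are therefore bounded well within a 1.5-fold change. SORD2P, a near-identical pseudogene copy, had 164 to 349 counts per library against 10759 to 13732 on SORD. GNMT, a glycine methyltransferase, had a log2 fold change of -0.32, and SMS, spermine synthase, 0.14.

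Of the chromosome and cell division proteins, 0 of 3 passed in edgeR and 1, CENPN, in DESeq2 and at an unadjusted p-value under 0.05. CENPN differed in direction from NCAPD3, a condensin subunit, at 175 ± 9.34 CPM in C4-2B against 203 ± 4.59 CPM in RC4-2B (log2 fold change 0.22). MPHOSPH9, a centriole protein, had a log2 fold change of 0.28, or 0.054 without RC4-2B replicate 2, and overlapping groups. The vesicle traffic and other proteins TPD52, RAB4A, HERC3 and C1orf116 had log2 fold changes of 0.058 to 0.16, which changed sign in other fits for all but C1orf116, overlapping groups, and 0 of 4 calls in edgeR, in DESeq2 or at an unadjusted p-value under 0.05.

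**Figure D3:**
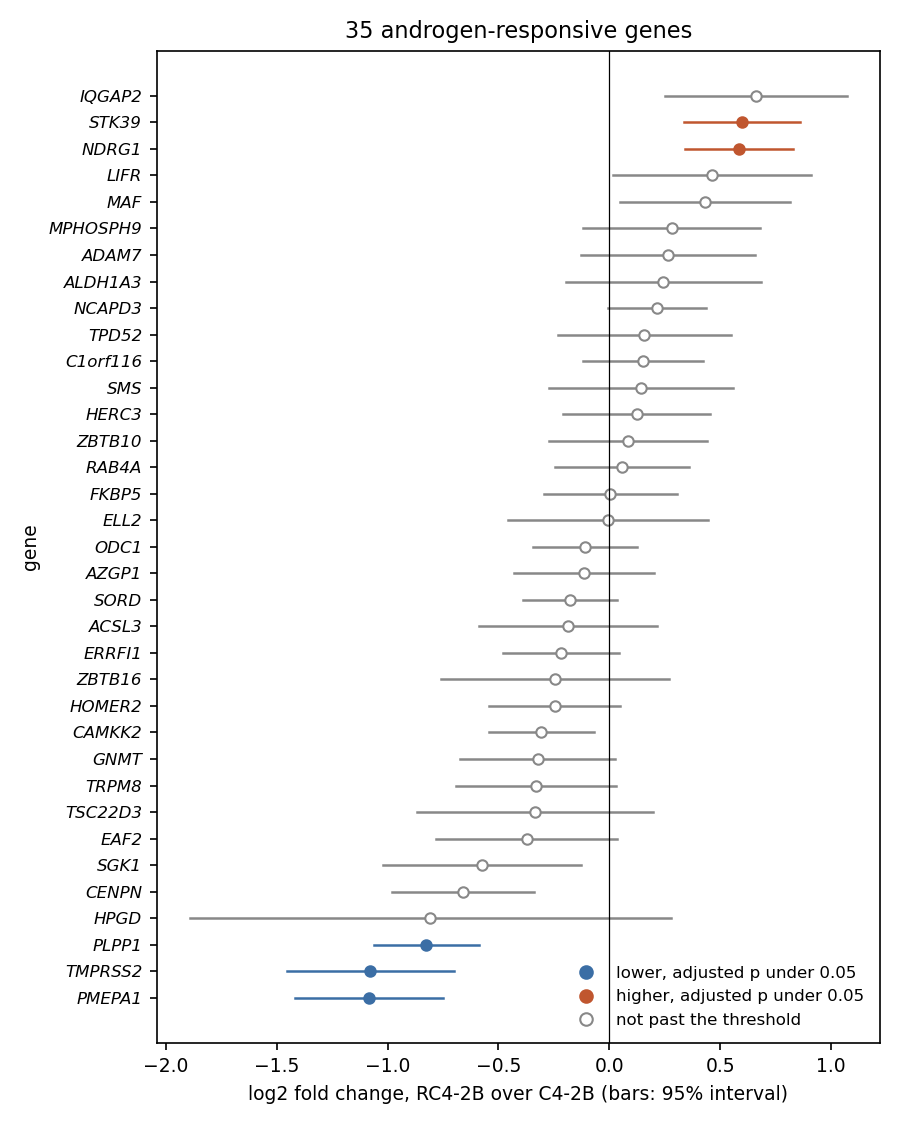
Log2 fold change of RC4-2B over C4-2B for the 35 genes (points) with 95% intervals from the edgeR fit (bars). The 3 genes called lower and the 2 called higher are filled, and the intervals of most others include 0.

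Lower and higher genes were both common among the 35. Of them, 19 had a log2 fold change below 0 and 16 above 0, so that 54.3% were on the lower side, against 49.3% of all genes tested. Their median log2 fold change was -0.11, against 0.0063 over all genes tested. In 11 of the 35 genes all RC4-2B libraries were below all C4-2B libraries, and in 6 all were above, which is 31.4% and 17.1%. Over all genes tested these shares were 17.1% and 17%. An exact permutation test of a single gene over 3 against 3 libraries cannot go below p = 0.1.

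The RC4-2B libraries differed in how many genes were low. In replicate 1, 23 of the 35 genes were below every C4-2B library and 7 above, in replicate 2 these numbers were 14 and 15, and in replicate 3 they were 16 and 13. These counts were not made over all genes tested, so no conclusion about the 35 genes is drawn from them. Relative to the C4-2B mean, the median of the 35 genes was -0.19, 0.035 and 0.028 (log2) in RC4-2B replicates 1 to 3, and it ranged from -0.053 to 0.067 in C4-2B. The median over all genes tested was between -0.0014 and 0.0084 in every library.

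The value in RC4-2B replicate 2 went with the GC content of the transcript. The 35 genes had a median GC content of 43.5%, against 48.2% over all genes tested. The log2 difference between replicate 2 and the mean of replicates 1 and 3 had a Spearman correlation of -0.71 with GC content across the 35 genes, and of -0.67 across 14987 genes, which share their libraries and are not independent. Replicate 2 was the highest RC4-2B library in 19 of the 35 genes and the lowest in 8, which was not counted over all genes tested. With a correction for GC content, 24 of the 35 genes were on the lower side (68.6%, against 50.01% of all genes), and without replicate 2, 23 (65.7%, against 49.7%). The median of the 35 genes was then -0.15 and -0.098.

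**Figure D4:**
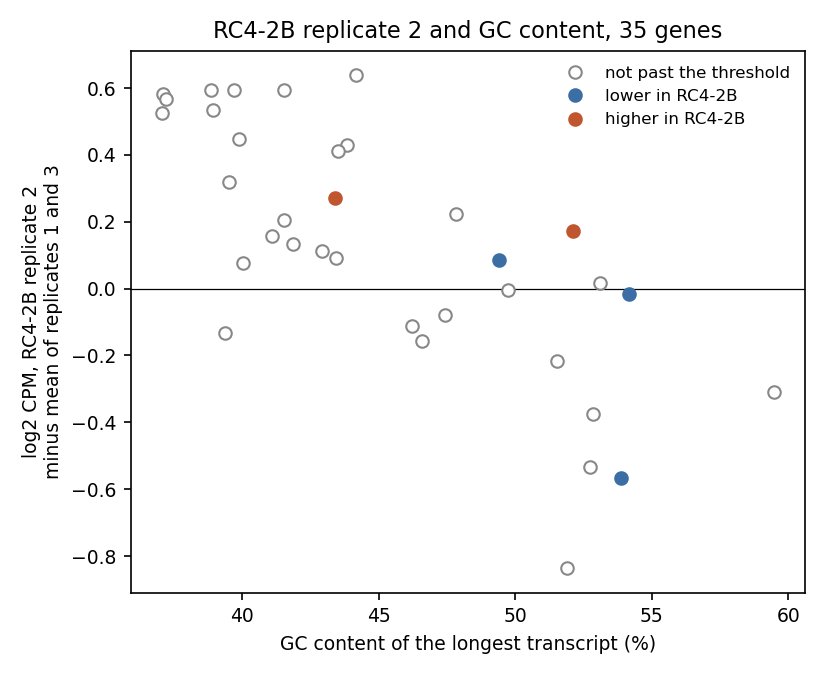
Log2 CPM in RC4-2B replicate 2 minus the mean of replicates 1 and 3 (vertical) against the GC content of the longest transcript in percent (horizontal) for the 35 genes. Most genes of low GC content lie above 0 and most of high GC content below it, with a Spearman correlation of -0.71.

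The number of calls rose in both settings, as did the share of all genes called. With the GC correction 7 of the 35 genes were lower and 3 higher, against 3.25% and 4.36% of all genes. The lower genes were then PMEPA1, TMPRSS2, PLPP1, CENPN, SGK1, TRPM8 and ACSL3, and the higher genes STK39, NDRG1 and IQGAP2. Without replicate 2, 7 were lower and 4 higher, against 6.02% and 6.5% of all genes. CAMKK2 took the place of SGK1 among the lower genes, and MAF joined the higher genes.

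Over the edgeR fit of all 6 libraries and the 16 alternatives, 17 of the 35 genes stayed below 0 wherever they could be fitted, 10 stayed above 0, and 8 changed sign. Those that stayed above 0 were ADAM7, LIFR, MAF, STK39, NDRG1, IQGAP2, ALDH1A3, NCAPD3, MPHOSPH9 and C1orf116. Those that changed sign were FKBP5, AZGP1, ELL2, ZBTB10, SMS, TPD52, RAB4A and HERC3, with log2 fold changes of -0.11 to 0.16 over all 6 libraries. The other 17 genes include PMEPA1, TMPRSS2, PLPP1 and CENPN.

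**Figure D5:**
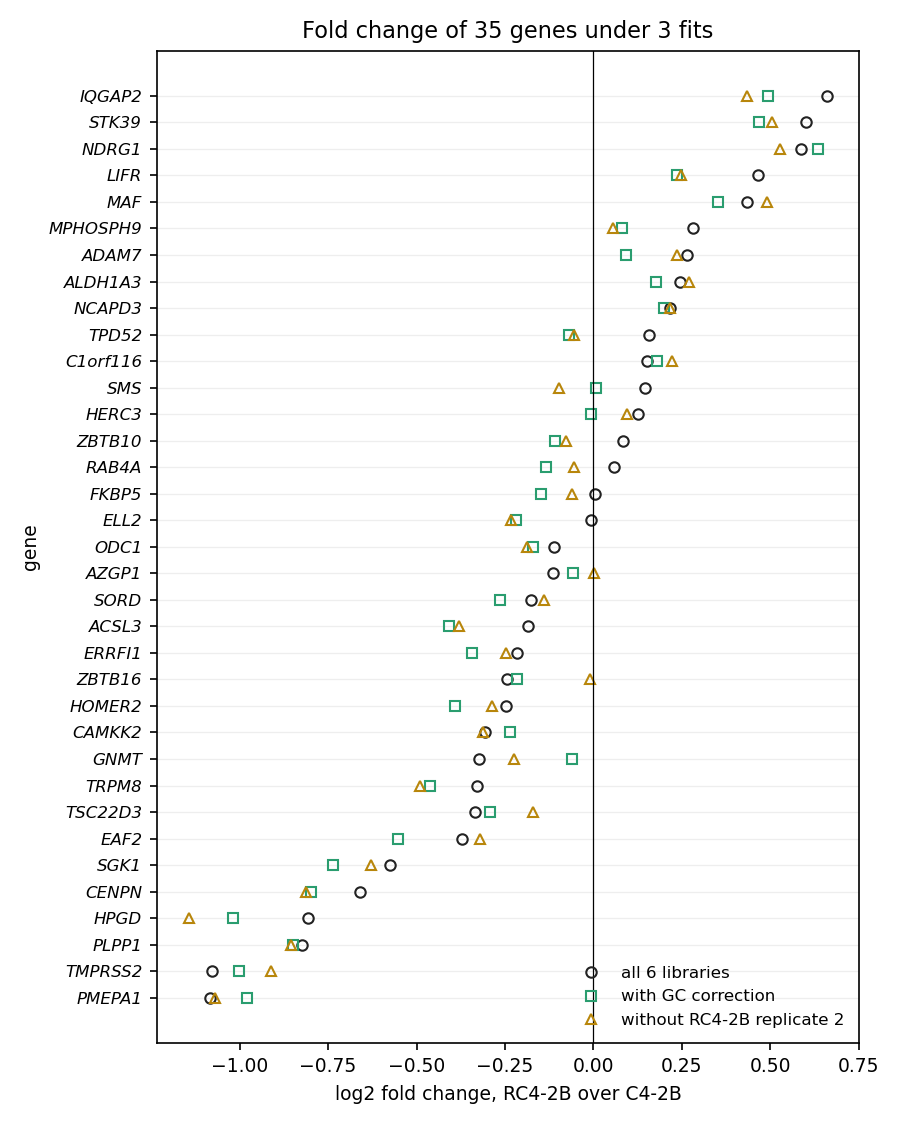
Log2 fold change of the 35 genes over all 6 libraries (circles), with GC correction (squares) and without RC4-2B replicate 2 (triangles). PMEPA1, TMPRSS2 and PLPP1 stay at the low end together with HPGD, and STK39, NDRG1 and IQGAP2 at the high end, while genes such as TPD52 and RAB4A cross 0.

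Promoter sequences from RefSeq (GRCh38.p14), which cover 250 bases before to 50 bases from the start of the gene, were matched by symbol for 26 of the 35 genes. They were searched on both strands for the androgen response half-site AGAACA, for the full response element, which is AGAACA and TGTTCT with any 3 bases between them, for its shorter core ACANNNTGT, which lies within it, and for the forkhead motif TGTTTAC. The half-site was in 3 of the 26 promoters (11.5%), those of FKBP5, PMEPA1 and STK39, and in 14.8% of all 35116 promoters. The core was in 2, those of GNMT and TSC22D3 (7.69%, against 5.37%). The full element and the forkhead motif were in 0 of the 26, against 0.00285% and 3.42% of all promoters. The promoters of PMEPA1 and STK39 are shown. Both genes were called, the former lower and the latter higher in RC4-2B. Both promoters hold the half-site, printed in capitals. Genes without a matched promoter were not searched. PMEPA1 is chr20:57711423-57711722 and STK39 is chr2:168247546-168247845, both on the minus strand and written 5′ to 3′.
PMEPA1: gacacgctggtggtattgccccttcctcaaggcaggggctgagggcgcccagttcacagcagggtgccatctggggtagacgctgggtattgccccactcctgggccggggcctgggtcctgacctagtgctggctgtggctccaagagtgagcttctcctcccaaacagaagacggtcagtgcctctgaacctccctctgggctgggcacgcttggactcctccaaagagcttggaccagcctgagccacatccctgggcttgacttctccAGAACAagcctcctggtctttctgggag
STK39: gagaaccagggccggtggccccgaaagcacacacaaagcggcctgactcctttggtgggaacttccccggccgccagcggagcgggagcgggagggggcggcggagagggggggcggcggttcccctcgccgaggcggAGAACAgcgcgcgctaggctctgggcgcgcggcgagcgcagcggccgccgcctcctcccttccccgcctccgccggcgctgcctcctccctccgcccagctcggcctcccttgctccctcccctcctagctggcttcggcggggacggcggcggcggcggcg
Relative to the RefSeq start, the half-site of PMEPA1 begins at base 23 of the transcribed side and that of STK39 112 bases before it. The RefSeq starts lie 64 and 546 bases inside the gene spans given above, which come from the deposited table, so in that annotation both windows differ from the 5′ end of the gene. Both match the printed strand. Such a match is a description of the letters in this window and says nothing on binding. In these cells PMEPA1 was 2.12-fold lower and STK39 was 1.52-fold higher in RC4-2B.

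NR3C1, the glucocorticoid receptor, had 2, 0 and 6 counts in the C4-2B libraries and 0, 1 and 0 in those of RC4-2B, so it was too low to be tested. FOXA1 was at 426 ± 3.58 CPM in C4-2B against 364 ± 36.0 CPM in RC4-2B, with log2 fold change -0.22 (95% interval -0.46 to 0.01).

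In the lists of other genes of the pathway, edgeR called 3 of 93 tested genes lower and 0 higher. It called 0.903% of all genes lower and 1.08% higher. Over all genes, 9.42% were lower and 12% higher at an unadjusted p-value under 0.05 in edgeR. DESeq2 called 2.64% of all genes lower and 3.28% higher. Of the receptors and pioneer factors 0 of 5 tested genes passed in edgeR, with 1 lower (GATA2) and 1 higher (PGR, at under 1 CPM on average) at an unadjusted p-value under 0.05 and GATA2 alone in DESeq2. GATA2, a zinc finger pioneer factor, had a log2 fold change of -0.65 (edgeR adjusted p = 0.13). In edgeR its change was -0.43 without RC4-2B replicate 2 (adjusted p = 0.0037) and -0.38 with the GC correction (adjusted p = 0.030). Of the coactivators and corepressors 0 of 12 passed, with 4 higher (EP300, MED1, PIAS1 and NCOR1) at an unadjusted p-value under 0.05 and 1 higher, MED1, in DESeq2. MED1, a Mediator subunit, had a log2 fold change of 0.67 (adjusted p = 0.052), and 0.55 with the GC correction (edgeR adjusted p = 0.010). Without RC4-2B replicate 2, MED1 had 0.55 (edgeR adjusted p = 0.0017) and NCOR1 0.36 (adjusted p = 0.016), while EP300 and PIAS1 did not pass. Of all genes, 6.02% were then called lower and 6.5% higher. The median of the list was 0.21, or 0.098 without RC4-2B replicate 2. Of the steroid receptor chaperones 0 of 7 passed, with 1 higher, HSP90AA1, both at an unadjusted p-value under 0.05 and in DESeq2. HSP90AA1, the inducible HSP90, had a log2 fold change of 0.63 (adjusted p = 0.088), and the median of the list was 0.14. Without RC4-2B replicate 2 these were 0.41 (adjusted p = 0.0019) and 0.080.

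A longer list held 67 further androgen-responsive genes, of which 65 were tested. In edgeR 2 were called lower and 0 higher, against 0.903% and 1.08% of all genes. DESeq2 called 5 lower and 5 higher, against 2.64% and 3.28% of all genes. At an unadjusted p-value under 0.05 in edgeR, 8 were lower and 9 higher, against 9.42% and 12% of all genes. BMPR1B, a receptor for bone morphogenetic proteins, was at 29.8, 28.9 and 28.6 CPM in C4-2B and at 8.69, 10.1 and 6.11 CPM in RC4-2B. It was low in every RC4-2B library, with a log2 difference of -1.80 and a standard error of 0.19 (edgeR adjusted p = 0.0045). ADAMTS1, a secreted metalloprotease, had a log2 fold change of -0.50 (adjusted p = 0.034). Besides these 2, DESeq2 called AKT1, MYL12A and SPDEF lower. Its higher genes were INPP4B, AKAP12, CDC14B, GPD1L and APPBP2. In edgeR all genes that DESeq2 called passed without RC4-2B replicate 2, and all but AKT1 with the GC correction. The median over the 65 genes was -0.013, or -0.060 without RC4-2B replicate 2, and 53.8% were below 0.

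The kallikreins hold the gene with the largest decrease among all these lists. KLK3 had a log2 fold change of -4.33, and KLK2, KLK4 and KLK15 had -0.84, -0.38 and -1.05 and did not pass in edgeR. All 4 were lower at an unadjusted p-value under 0.05, against 9.42% of all genes. DESeq2 called 3 lower, KLK2 (adjusted p = 0.022) and KLK15 (adjusted p = 0.010) besides KLK3, against 2.64% of all genes. Without RC4-2B replicate 2, KLK2 had -0.56 (adjusted p = 0.00045), KLK15 -1.24 (adjusted p = 0.0023) and KLK4 -0.21 (adjusted p = 0.12). In that fit 6.02% of all genes were called lower. Over all 6 libraries all 4 were below 0, against 49.3% of all genes tested. All 4 also had lower groups that did not overlap, against 17.1% of all genes tested. The 95% interval for KLK3 was -4.87 to -3.79, and that for PMEPA1, the lowest of the 35 genes, was -1.42 to -0.75. The difference between the kallikreins and the 35 genes as lists was not tested.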

How the data were processed

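RNAseq was done on 3 libraries of C4-2B and 3 of RC4-2B. The deposited table holds raw read counts per gene and FPKM values made by the authors, with STAR and GRCh38 named in the submitters' processing notes. The counter, its strand setting and the annotation release are not given in the sources used here. Counts were fitted in edgeR 4.0.16 (R 4.3.3) by the quasi-likelihood test, with TMM scaling, filterByExpr at a minimum count of 10, and Benjamini-Hochberg adjustment over all genes tested at 0.05. Each standard error is the size of the log2 difference over the root of its F statistic. DESeq2 1.42.0, which the study names, and limma 3.58.1 on log2 FPKM with a pseudocount of 1 or 0.1, kept to genes at an FPKM of 1 or more in 3 libraries, were alternatives, as were RLE and upper-quartile scaling, other filters, the replicate number as a block, and each library left out. The GC correction used a lowess trend (span 0.2) per library against the GC content of the longest GENCODE 44 transcript, which also removes any mean GC trend between the lines. Steps were tested on simulated data. Replicates differed by a chi-square of 3.17 to 58.7 per gene, so none was a copy. The labels call the replicates biological and say no more, so p-values measure the spread between these libraries, which may be technical in part. Members called or past 1.5-fold with groups that did not overlap are described by library, and the others by role. The members and all gene lists were chosen with earlier results of these data known. The result for 1 gene of the pathway lists is not reported here.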

Additional observations from a re-analysis of the deposited data

How the results depend on the processing

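Of the 35 genes, 7 were lower with the GC correction and 7 with the GC correction and the replicate block together, and the number lower ranged from 0 to 7 when 1 library was left out. The number higher was 0 with limma on log2(FPKM + 1) and 0 on log2(FPKM + 0.1). Of all genes, limma called 0.384% and 0.325% higher. STK39 (0.61 and 0.62, adjusted p = 0.089 and 0.098) and NDRG1 (0.58 and 0.60, adjusted p = 0.072 and 0.079) did not pass there. In each limma fit 5 were higher at an unadjusted p-value under 0.05, against 10.5% of all genes, and HPGD and SGK1 were not tested. The number higher ranged from 0 to 4 when 1 library was left out. The number of genes with all RC4-2B libraries above all C4-2B libraries ranged from 6 to 10 without 1 library, and the number below from 11 to 14. Over all 6 libraries these numbers were 6 and 11, where 17% and 17.1% of all genes tested had such groups. With fewer libraries groups overlap less readily, and the shares of all genes were not counted without 1 library.

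Of 93 pathway list genes tested in edgeR over all 6 libraries, those called lower numbered 3. The number was 9 in DESeq2, 8 without a filter, 12 with the GC correction, 11 with it and the replicate block, and 2 to 13 without 1 library. Those called higher numbered 0 in edgeR, with 15 at an unadjusted p-value under 0.05, and 7 in DESeq2, 1 with upper-quartile scaling, 8 without a filter, 8 with the GC correction, 8 with it and the block, and 0 to 9 without 1 library. The share of all genes called also rose, from 0.903% lower and 1.08% higher to 2.64% and 3.28% in DESeq2, 2.22% and 2.07% without a filter, 3.25% and 4.36% with the GC correction, and 3.75% and 4.26% with it and the block. Without 1 library the shares of all genes ranged from 0.2% to 6.02% lower and from 0.0838% to 6.5% higher. The fit without a filter tested 96 of the pathway list genes, and those without 1 library tested 93 or 94. The cause of these differences was not tested.

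Libraries of the same number had deviations from their group means that correlated at 0.18, 0.11 and -0.027, so the numbers were not taken to pair the samples. With the replicate block 3 of the 35 genes were lower and 0 higher in edgeR, with 5 higher at an unadjusted p-value under 0.05, and the adjusted p-values were 0.071 for STK39 and 0.069 for NDRG1. Over all genes the block left 74 lower and 55 higher, against 136 and 162 without it. At an unadjusted p-value under 0.05 it had 11.3% of all genes higher. No result changed direction among those called. HPGD, with 7 to 33 counts per library, had the widest interval.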
